A study of Mus musculus with 5 samples.

Results

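Tlr2, Ly86 and Marco, 3 genes of bacterial recognition, were followed through an exposure of macrophages to bacterial lipopolysaccharide (LPS). They were chosen by gene symbol and not by their values: probes whose single symbol was Marco, Ly86 or Cd14, or Tlr followed by a number. The rule found 3 probes, 1 for each gene, among 19828 probes, and the 3 genes were among 8452 named genes with a value on all 5 arrays. Cd14, Tlr4 and the remaining Tlr genes were not analysed here, since no probe with a single symbol matched them. The cells were macrophages grown in culture from bone marrow of C3H/HeJ mice with human CSF-1, the growth factor that drives the macrophage lineage. There were 5 groups of 1 array each: macrophages without LPS (0 h) and macrophages after 0.5, 2, 7 or 21 h with 10 µg per ml of LPS from S. minnesota. On every array the macrophage RNA was set against a common reference, total RNA of whole C57BL6/J embryos of 17.5 days. All groups carried the Tlr4 mutation of the C3H/HeJ strain, and no macrophages with an intact Tlr4 stood beside them. The labels do not say how many mice gave the marrow or whether the times came from 1 culture.

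Toll-like receptors (TLRs) sense parts of microbes through repeats rich in leucine outside the cell or in endosomes, and signal through a TIR domain inside it. TLR4, with CD14 and MD-2, senses the lipid A of LPS; a missense mutation in its TIR domain leaves C3H/HeJ mice hyporesponsive to LPS. Tlr2 encodes the receptor for bacterial lipoproteins, which works in pairs with TLR1 or TLR6 and does not need TLR4. Ly86 encodes MD-1, the small secreted partner of the TLR-like protein RP105 on B cells and macrophages. Marco encodes a scavenger receptor of certain macrophages that binds bacteria and particles and can be induced by bacterial products.

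The start-site windows of the 3 genes are printed because their courses over time differed, as described further on. The windows run 5′ to 3′ on the gene's strand, from 250 bases before to 50 after a RefSeq start, in build GRCm38.p6, and all 3 genes had one. Capitals mark matches, on either strand, to the consensus of NF-kB and to GAGGAA, a core of sites for the myeloid factor PU.1.
Tlr2, chr3:83841559-83841858, minus strand: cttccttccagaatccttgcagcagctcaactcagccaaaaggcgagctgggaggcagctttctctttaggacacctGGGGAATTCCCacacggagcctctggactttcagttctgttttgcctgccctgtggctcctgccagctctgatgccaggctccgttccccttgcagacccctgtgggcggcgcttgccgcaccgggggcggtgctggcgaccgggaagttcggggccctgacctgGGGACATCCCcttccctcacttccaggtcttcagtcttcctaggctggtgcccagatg
Ly86, chr13:37345095-37345394, plus strand: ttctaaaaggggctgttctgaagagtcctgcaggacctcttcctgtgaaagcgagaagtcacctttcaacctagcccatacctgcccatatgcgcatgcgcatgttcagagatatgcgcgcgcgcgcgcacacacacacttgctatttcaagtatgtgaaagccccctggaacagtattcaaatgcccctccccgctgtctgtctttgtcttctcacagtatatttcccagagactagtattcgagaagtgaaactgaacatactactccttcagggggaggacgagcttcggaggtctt
Marco, chr1:120504975-120505274, minus strand: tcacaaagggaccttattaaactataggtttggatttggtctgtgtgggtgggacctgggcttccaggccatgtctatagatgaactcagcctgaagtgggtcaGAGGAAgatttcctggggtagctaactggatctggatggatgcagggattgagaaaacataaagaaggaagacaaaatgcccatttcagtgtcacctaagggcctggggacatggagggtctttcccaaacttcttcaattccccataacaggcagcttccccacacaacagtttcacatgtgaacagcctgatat
The Tlr2 window held the NF-kB consensus in 2 places, as overlapping matches beginning 173 and 172 bases before the start and as 1 match beginning 8 bases before it and running past it. The consensus was in 8.46% of 32851 windows of this length. A looser form, GGG and CC with any 5 bases between them, was in the Tlr2 and Marco windows and in 50.8% of all windows. The consensus was chosen after the matches to the looser form in these windows had been seen, and a search for an interferon response element made at the same time is not reported. The Marco window held 1 match to the PU.1 core, found in 28.3% of windows, and the Ly86 window held none of these. TGANTCA for AP-1 (in 7.81% of windows), TATAAA (13.6%) and CCAAT (37.4%) were searched on both strands too and were in none of the 3. A match describes letters only, and factor binding was not measured.

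The deposited values are log ratios, read here as base 10, from which the median of the 8452 genes on the same array was subtracted. Neither the base nor the channel in the numerator is stated. By the medians of their marker lists, 9 measured macrophage genes stood between 0.64 and 1.22 on the 5 arrays and 21 measured embryo genes between -1.01 and -0.58, so macrophage over embryo is the likely direction and every sign rests on it. Of the macrophage markers, Cd68 and Tyrobp were below 0 on all 5 arrays. Of the embryo markers, Igf2bp1 was above 0 on all 5, between 0.31 and 0.70, and Dcx (0.81) and Krt5 (0.14) were above 0 at 0.5 h alone. Lyz2, the lysozyme of myeloid cells, was at 1.13 at 0 h and Lcp1, an actin-bundling protein of leukocytes, at 1.20, while Alb, serum albumin, was at -1.78 and the beta globin Hbb-b1 at -1.86. The 0.5 h array stood apart, with a correlation of 0.48 with the 0 h array across probes where the later arrays had 0.75 to 0.85. The error used here is the spread between probes of the same gene, pooled over 2968 genes with more than 1 probe, in the difference from 0 h. Its SD was 0.48, 0.16, 0.16 and 0.19 for the 0.5, 2, 7 and 21 h arrays. It holds no spread between cultures or hybridisations, and no difference has a replicate check or a test.

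Tlr2 was above the embryo reference on all 5 arrays. Its centred log ratio on the 0, 0.5, 2, 7 and 21 h arrays was 0.34, 0.31, 0.70, 0.23 and 0.62, respectively. The 2 h and 21 h arrays thus had the highest values, a grouping read from these same values with 1 array for each time. Read as base 10, Tlr2 RNA stood 2.20-fold over embryo RNA at 0 h and 5.04-fold at 2 h. Read as base 2, these would be 1.27-fold and 1.63-fold. Among all genes its ratio lay at percentiles 93.2, 77.3, 97.2, 82.7 and 98.1 in the same order of arrays. It was the 1 member at least 2-fold above embryo at 0 h, where 8.99% of all genes were, at 0.5 h (23.4%) and at 2 h (13.4%). At 7 h no member was (12.6% of genes), and at 21 h both Tlr2 and Ly86 were (9.67%). In these bulk samples fewer cells that express a gene and less RNA per cell cannot be told apart.

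Ly86 was near the embryo reference on 4 arrays and far above it on 1. In order of time its centred log ratios were 0.09, -0.08, -0.14, -0.02 and 0.74. The 21 h array therefore stood alone, 0.64 above the next array, that of 0 h. Read as base 10, Ly86 RNA was 1.24-fold over embryo RNA at 0 h and 5.45-fold at 21 h. Its percentile among all genes was 68.7, 39.5, 27.8, 44.4 and 99.1 in the same order of arrays.

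Marco lay close to 0 throughout. In order of time its centred log ratios were -0.06, -0.11, 0.04, -0.04 and -0.13, below 0 on 4 arrays and above it on 1. The whole range over the 5 arrays was 0.17, at percentile 18.7 of the ranges of all genes, whose median was 0.31. The range was 0.87 for Ly86 and 0.47 for Tlr2. Without the 0.5 h array the range of Marco was at percentile 40.3, that of Tlr2 at 90.1 and that of Ly86 at 98.0. No spot intensities were used, so the ratio of a transcript at equal levels in both RNAs and that of a spot near background cannot be told apart.

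**Figure D1:**
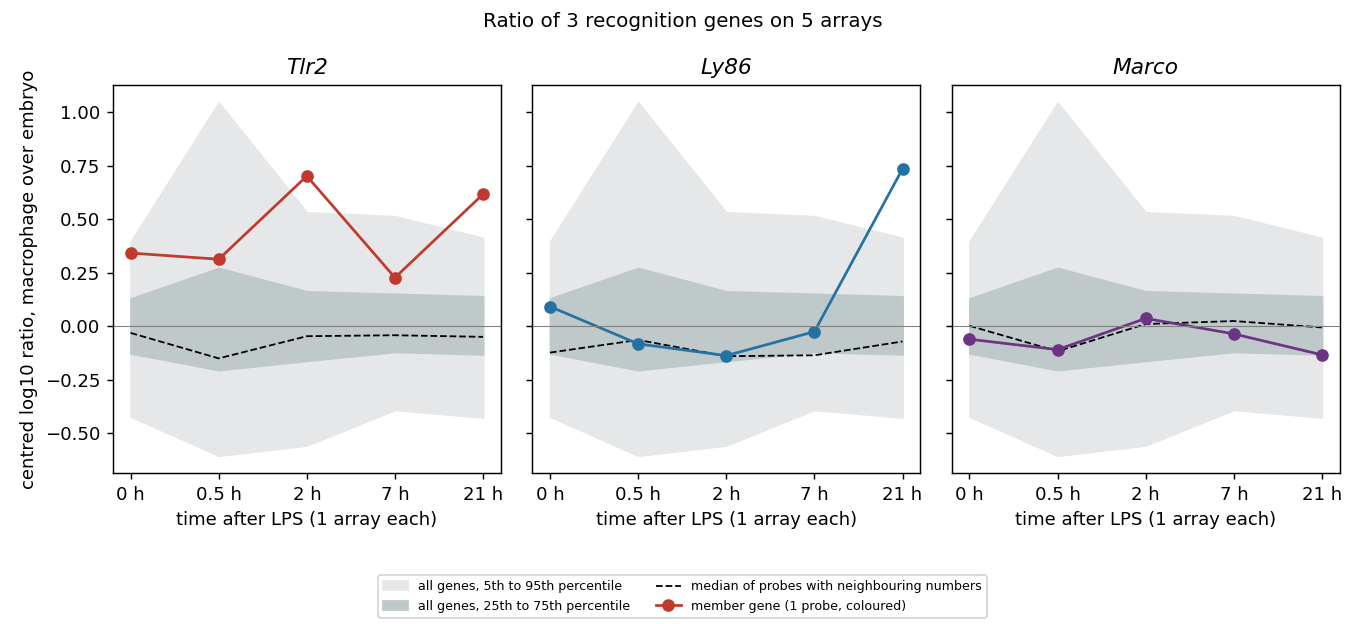
Centred log10 ratio of macrophage over embryo RNA (y axis) of Tlr2, Ly86 and Marco on the 5 arrays (x axis, time after LPS, 1 array each), with bands for the middle of all genes and a dashed line for the median of up to 400 probes with neighbouring numbers. Tlr2 peaks at 2 h (0.70) and 21 h (0.62), Ly86 at 21 h alone (0.74), and Marco stays between -0.13 and 0.04.

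The order of the arrays was read against the probe spread of each pair of arrays. For Tlr2 the order ran from 2 h down through 21 h, 0 h and 0.5 h to 7 h. The step from 2 h to 21 h was 0.08, within the probe SD of 0.22 for that pair. The step from 21 h to 0 h was 0.28, which is 1.45 times its SD of 0.19. The 2 h array lay above 7 h by 0.47, or 2.36 times the SD of 0.20, and above 0 h by 0.36, or 2.19 times. Neither array differed from 0.5 h by more than the SD, since that array's spread is wide. For Ly86 the step from 21 h to 0 h was 3.40 times its SD, and every other neighbouring step in the order 21 h, 0 h, 7 h, 0.5 h and 2 h was within 1 SD. For Marco the largest of all 10 pairwise differences, between 2 h and 21 h, was 0.77 times its SD.

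Against the unexposed array, the size rule for a higher or lower gene was a difference of at least 2-fold, which is 0.301 on the base 10 reading. At 2 h, Tlr2 was the 1 member counted as higher, where 4.24% of all genes were. At 21 h Ly86 was the 1 member counted as higher, where 4.33% of all genes were. No member was past 2-fold at 0.5 h, where 19.9% of genes were higher and 10.6% lower, or at 7 h, where 3.35% were higher and 1.4% lower. No member was lower by 2-fold at 2 h (2.58% of genes) or at 21 h (4.69%). The balance of higher and lower calls over all genes moved with the scaling. At 0.5 h it was 1678 higher and 898 lower, but 1071 and 950 after quantile normalization and 888 and 1059 with the lowess trend on the mean ratio removed. At 7 h it was 283 and 118, but 282 and 379 after quantile normalization and 169 and 192 with that trend removed. At 21 h it was 366 and 396, but 371 and 267 with the running median over probe numbers removed. The 4 comparisons share the 0 h array, and with 3 members these counts describe single probes only.

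After 0.5, 2, 7 and 21 h of LPS, Tlr2 differed from the unexposed array by -0.03, 0.36, -0.11 and 0.28. The value at 2 h, a 2.29-fold difference on the base 10 reading and 1.28-fold on base 2, was at percentile 97.1 of all genes. That at 21 h, 1.88-fold on base 10, was just under the size rule. The 2 h call depended on the scaling: Tlr2 was at 0.26 after quantile normalization, 0.26 with the arrays scaled to equal spread and 0.23 after a lowess fit on the mean ratio was subtracted, all under 0.301. At 21 h quantile normalization put it at 0.39, past the rule. The macrophage markers moved the same way at 2 h: 4 of 9 were at least 2-fold higher and their median difference was 0.25. At 21 h none was and the median was 0.07. Of 21 embryo markers 3 were at least 2-fold lower at 2 h and none higher, with a median of -0.20. At 21 h 1 embryo marker was higher and none lower, with a median of 0.05. The SD over all probes was 0.42 at 2 h, beside 0.33 at 0 h. The part of the array's spread or of macrophage content in the 2 h value was not tested.

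The 4 differences of Ly86 from the unexposed array were -0.17, -0.23, -0.12 and 0.64 in order of time. The first 3 values were all below 0, by 0.36, 1.39 and 0.74 times the probe SD. The 21 h value is 4.40-fold on the base 10 reading, or 1.56-fold on base 2, and lay at percentile 99.4 of all genes. Under the alternative scalings it stayed between 0.60 and 0.99. Of the B cell markers, a lineage that also expresses Ly86, 3 of 10 were measured and none was higher at 21 h: Cd79b differed by -0.16, Ebf1 by -0.03 and Vpreb3 by -0.88. Of 8 dendritic cell markers 2 were measured, and Ccr7 differed by -0.06 and Fscn1 by 0.16. The part of B cell or dendritic cell content in the 21 h value of Ly86 was not tested.

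For Marco the 4 differences were -0.05, 0.10, 0.02 and -0.07. All 4 values were within 1 probe SD. Its sign at 0.5 h and at 7 h changed between scalings, with values from -0.07 to 0.06 at 0.5 h and from -0.0046 to 0.04 at 7 h.

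The other genes of the pathway came from a list of 88, of which 31 had a value on all 5 arrays. They stood around 0 as a group, with median differences of 0.05, 0.02, 0.05 and 0.02 in order of time, beside -0.01, -0.01, 0.02 and 0.00 for all genes. At least 2-fold higher were 5, 4, 4 and 1 of the 31, beside 19.9%, 4.24%, 3.35% and 4.33% of all genes. Lower by 2-fold were none at 0.5, 2 or 7 h and 1 at 21 h, beside 10.6%, 2.58%, 1.4% and 4.69% of all genes. At 0.5 h this direction depended on the scaling: 2 were higher and 5 lower after quantile normalization, 3 and 3 with the arrays scaled to equal spread, and 1 and 6 after the lowess fit was subtracted. Over all genes these were 1071 and 950, 1347 and 710, and 888 and 1059. The median of the pathway genes at that time was then -0.07, -0.02 and -0.09. At 2 h quantile normalization gave 3 higher and 3 lower of the 31, beside 330 and 265 of all genes.

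None of 5 measured genes of other receptors was past 2-fold at any time. Cd36, the scavenger receptor that helps TLR2 with lipoproteins, differed by -0.07 ± 0.23, 0.01 ± 0.05, 0.09 ± 0.14 and 0.08 ± 0.09 at the 4 times (SD over 7 probes). Its ratio at 0 h was 0.65, and that of Colec12, a scavenger receptor of the collectin family, was 0.67. Pglyrp1, which binds peptidoglycan, differed by 0.20 at 21 h. The smallest value among them was that of Tyrobp, a signal adaptor of myeloid receptors, with -0.23 at 7 h.

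Among 6 measured genes for the folding and transport of TLRs, Unc93b1 had the course of Tlr2. It encodes the protein that carries the endosomal TLRs out of the endoplasmic reticulum, and its 4 differences were 0.08, 0.55, 0.02 and 0.36. Against the 0.5 h array it was at 0.28 at 21 h, under 2-fold. Hsp90b1, the chaperone that TLRs need to fold, was at 0.30 ± 0.14 at 21 h (SD over 2 probes), just under 2-fold, and between -0.08 and 0.09 before. Cnpy4 (0.48 ± 0.24, 2 probes) and Tmed7 (0.32 ± 0.62, 2 probes) were past 2-fold at 0.5 h alone, and the probe spread of Tmed7 was wider than its difference. Neither stayed past 2-fold after quantile normalization, scaling to equal spread or the lowess fit, where Cnpy4 was at 0.15, 0.23 and 0.0041 and Tmed7 at 0.25, 0.27 and 0.29. Cnpy3, a partner of Hsp90b1 in TLR folding, differed by 0.24 ± 0.57, 0.02 ± 0.27, -0.06 ± 0.18 and -0.03 ± 0.07 at the 4 times (SD over 3 probes). Its probe spread was wider than its difference at each time. Lrrc59, with 1 probe, was within 0.06 of the 0 h array at 2, 7 and 21 h.

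Among 11 measured adaptors and kinases, Irf5, a transcription factor that acts below MyD88, was higher by 0.33 at 2 h and 0.51 at 7 h and at -0.14 at 21 h. Its 2 h call was lost after quantile normalization (0.12), scaling to equal spread (0.18), the lowess fit (0.13) and against the 0.5 h array (0.27), and its 7 h call after the lowess fit (0.30, under 0.301). Tbk1, the kinase of the TRIF arm, was higher by 0.39 at 7 h and at 0.25 against the 0.5 h array. Tab1, a partner of the kinase TAK1, was lowest of the list at 0.5 h with -0.20, and Ikbkg, the subunit NEMO of the IkB kinase, and Tab2 were lowest at 2 h with -0.22 and -0.12. Syk, a kinase of receptors with ITAM motifs, differed by -0.38 at 21 h. Traf6, the ubiquitin ligase below MyD88, was at 0.29 ± 0.60 at 21 h (SD over 2 probes), less than its probe spread. Irak1, the kinase that MyD88 recruits, stayed between -0.11 and 0.08, and Rela, the 1 measured NF-kB subunit, between -0.09 and 0.11.

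Among 8 measured negative regulators, Nfkbie, the inhibitor of NF-kB called IkB epsilon, was higher by 1.40, 0.56 and 1.12 at the first 3 times and differed by -0.23 at 21 h. Against the 0.5 h array in place of 0 h it was below that array, with -0.84 at 2 h and -0.28 at 7 h. After the lowess fit was subtracted it was at -0.15 at 0.5 h, and Ptpn6, the phosphatase SHP-1, which was at 1.35, was at -0.47; quantile normalization put Ptpn6 at 0.27. Inpp5d, the lipid phosphatase SHIP-1, was at 0.56 at 0.5 h and Ptpn11, the phosphatase SHP-2, at 0.36 ± 0.41 at 7 h (SD over 2 probes), or 0.29 after the lowess fit and 0.19 against the 0.5 h array. Dok2, an adaptor that restrains signalling in myeloid cells, was higher by 0.42 at 2 h, or 0.30 and just under 2-fold after the lowess fit, and at 0.30 at 21 h, also just under it. Nfkbia, the inhibitor IkB alpha and a common target of NF-kB, stayed between -0.14 and 0.13.

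**Figure D2:**
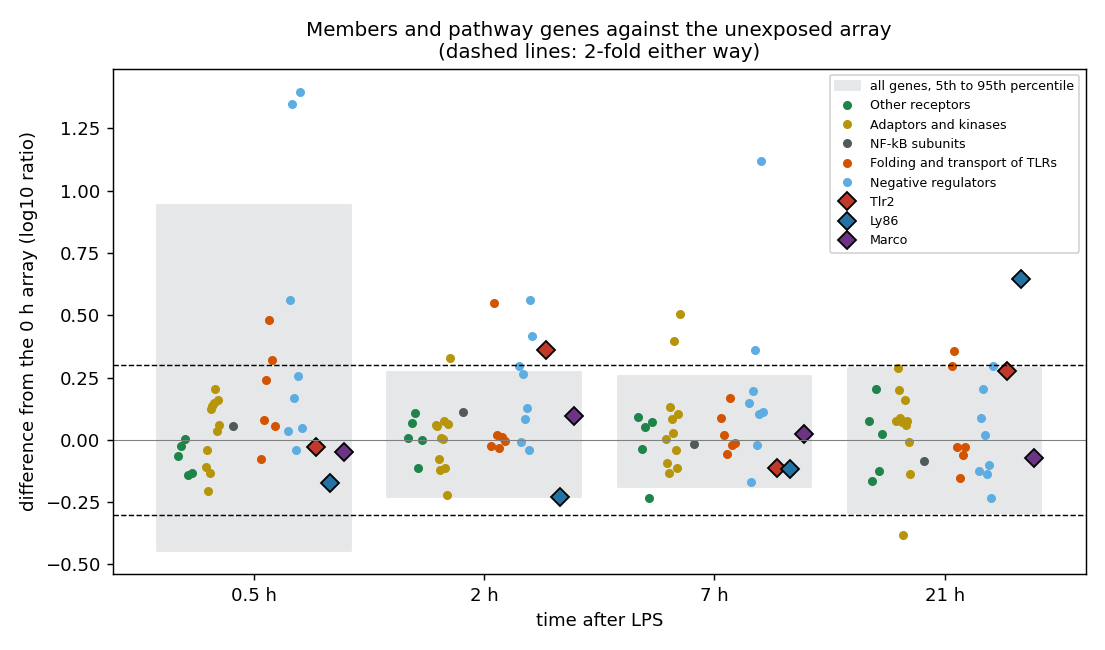
Difference of the log10 ratio from the 0 h array (y axis) at 4 times after LPS (x axis) for the 3 members (diamonds) and 31 pathway genes (dots, coloured by role), over grey boxes for the middle 90% of all genes. Tlr2 lies past the upper dashed line, 2-fold, at 2 h and Ly86 at 21 h, and the grey box is widest at 0.5 h.

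The genes with the course nearest to each member were found by the root mean square difference of the centred log ratio over the 5 arrays. Nearest to Tlr2 were Mvp, the major vault protein (0.08), Unc93b1 (0.08) and Dok2 (0.08), each with 1 probe (numbers 10809, 10429 and 6232), and 5 genes in all came within 0.1. Over the 4 arrays without 0.5 h they were C1qa, a chain of complement C1q, Unc93b1 and Mvp. Nearest to Ly86 were Nsmce3 (0.12), Tnni3 (0.13) and Tnpo3 (0.14), with probe numbers 373, 461 and 1484, and no gene came within 0.1; without 0.5 h they were Cmtm2b, Nsmce3 and Zpr1. Nearest to Marco were Ash2l (0.02), Mcemp1 (0.03) and Gcsh (0.03), and 849 genes came within 0.1; without 0.5 h they were 1700001D01Rik, Tlcd1 and Snhg8. These are likenesses over 5 points only.

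**Figure D3:**
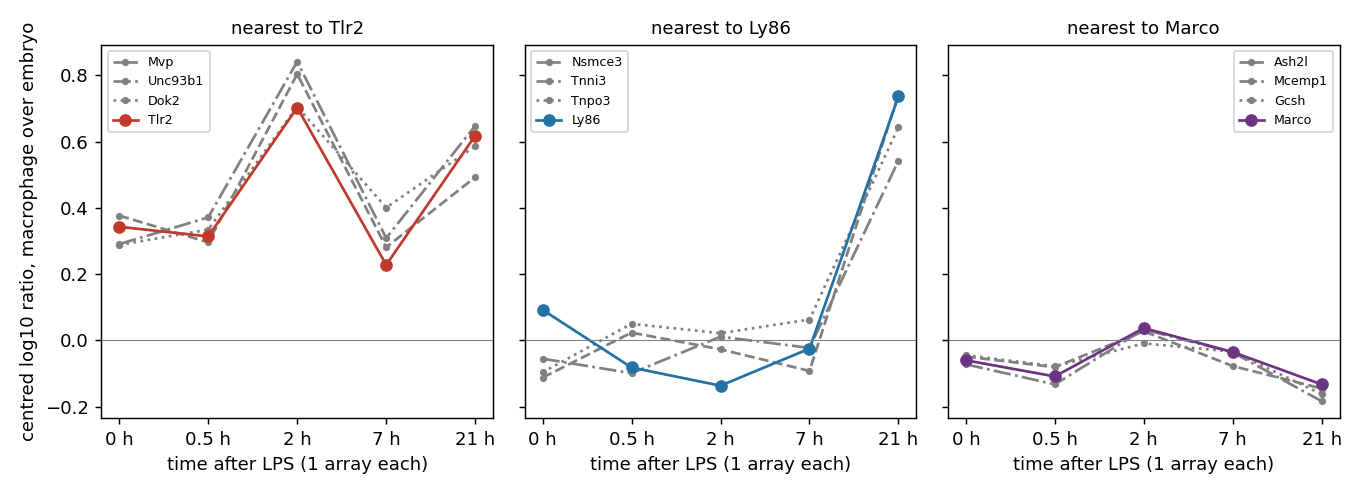
Centred log10 ratio (y axis) on the 5 arrays (x axis, time after LPS) of each member, in colour, and of the 3 genes nearest to it over the 5 arrays, in grey. Mvp, Unc93b1 and Dok2 share the peaks of Tlr2 at 2 h and 21 h, and the genes nearest to Ly86 are high at 21 h alone.

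The shapes were then counted over all genes, a choice made after the values were seen. For Tlr2 the lower of the 2 h and 21 h ratios exceeded the highest of the other 3 by 0.28. In 6.8% of genes these 2 arrays stood above the other 3, and 1 gene, Unc93b1, did so by a wider gap than Tlr2. Next after Tlr2 came Krt32 (0.25), Polr2e (0.23), Dapk1 (0.19) and Cfp (0.19), which encodes the complement regulator properdin. Over the alternative scalings and joins Tlr2 ranked between 1 and 11 and Unc93b1 between 1 and 15. With the 0.5 h array left out the gap of Tlr2 was the same, 0.28, but its rank was 91 of 8839 genes and that of Unc93b1 was 50. Probe numbers are those of the platform, and whether they follow the layout of the slide is not stated. The numbers of the Tlr2 and Unc93b1 probes differ by 78, so each lies among the other's 200 neighbours on a side. Of 387 probes around Tlr2, 10.6% had the 2 h and 21 h arrays highest, beside 7.05% of all probes, and 4 of 391 exceeded its difference at 2 h. With the running median over probe numbers removed, Tlr2 was at 0.37 at 2 h and 0.30 at 21 h.

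For Ly86 the 21 h ratio exceeded the highest of the other 4 by 0.64. In 20.7% of genes the 21 h array stood highest, and 10 genes had a wider gap than Ly86, led by Gtf2a2 (0.997), Ccdc17 (0.89) and Cd55 (0.87). Of these 10, 9 had probe numbers from 29 to 1429, a stretch below 1500 that holds 7.56% of all probes, and the Ly86 probe has number 859. Among 370 probes around Ly86, the 21 h array was highest by at least 2-fold in 7.84%, beside 1.75% of all probes, and 14.9% of 396 were at least 2-fold higher than at 0 h, beside 5.93%. Of these neighbours 21 exceeded Ly86 at 21 h and 375 were below it. The median difference of the neighbours was 0.03, and with the running median removed Ly86 was at 0.60. The part of probe number in the Ly86 value was not tested. Around Marco 0.259% of 386 probes had the 21 h array highest by 2-fold, and around Tlr2 1.29% of 387 did. By any margin the 21 h array was highest in 28.4% of probes around Ly86 and 29.5% around Tlr2. Around Marco it was so in 18.1%, beside 20.2% of all probes.

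**Figure D4:**
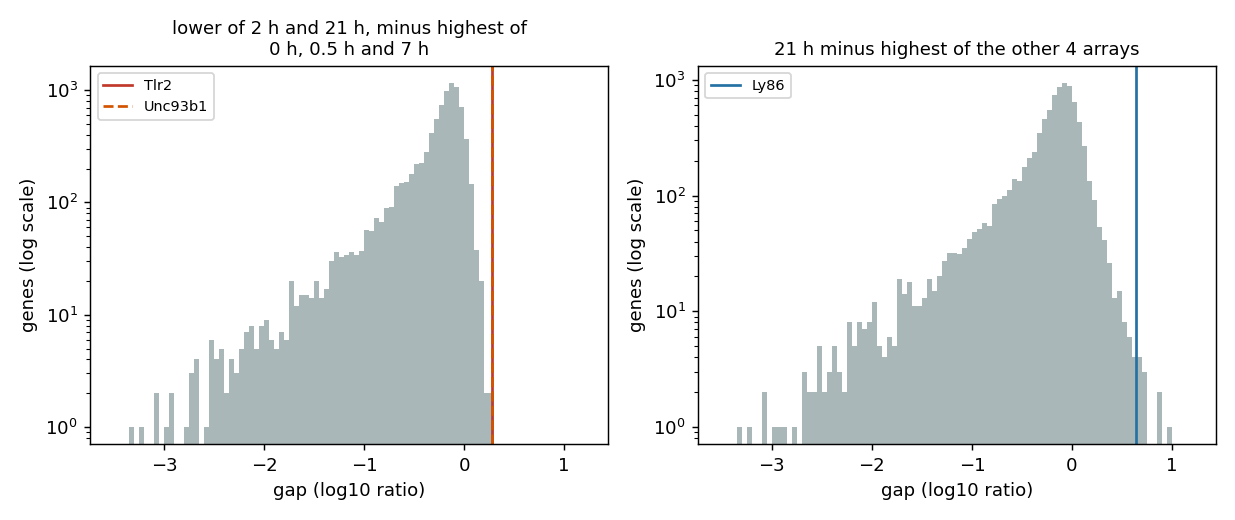
Number of genes (y axis, log scale) by the gap between arrays (x axis, log10 ratio), on the left the lower of the 2 h and 21 h ratios minus the highest of the other 3, on the right the 21 h ratio minus the highest of the other 4. Tlr2 (0.28) and Unc93b1 (0.28) stand at the right edge of the left panel, and 10 genes lie to the right of Ly86 (0.64) in the right panel.

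The 0.5 h array was also read around each member. Across probes with neighbouring numbers its correlation with the 0 h array was 0.73 around Tlr2, 0.79 around Ly86 and 0.78 around Marco, beside 0.48 over all probes. The SD of the difference from 0 h was 0.26 around Tlr2 and 0.15 around Marco but 0.507 around Ly86, beside 0.514 over all probes. Around Ly86 24.7% of probes were at least 2-fold higher, beside 19.9% of all probes. At that time the neighbours of Tlr2 had a median difference from 0 h of -0.12 and those of Marco of -0.11, where Tlr2 itself was at -0.03 and Marco at -0.05. With the running median removed, Tlr2 was at 0.08 at 0.5 h.

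Markers of other cells that the cultures could hold were read at the times when members stood out. At 2 h the median difference was -0.03 for 6 measured neutrophil genes, -0.05 for 4 T and NK cell genes, -0.26 for 3 mast cell genes and -0.22 for 7 fibroblast genes. At 21 h it was 0.01, -0.04, -0.17 and 0.09. At 21 h Col1a2, a collagen chain of fibroblasts, was higher by 0.68, and its 1 probe has number 724, in the stretch of Ly86. It was the 1 fibroblast gene of 7 past 2-fold at that time. Col1a1 differed by -0.11, Col3a1 by -0.11 and Dcn by -0.02, while Lum, Pdgfra and Pdgfrb differed by 0.09, 0.16 and 0.17. Summed over the list, the log ratios of the fibroblast genes were -3.97, -4.32, -5.54, -4.31 and -3.11 in order of time, highest at 21 h.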

How the data were processed

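Cultured C3H/HeJ macrophages were measured on 5 two-colour cDNA arrays, 1 for each time, against embryo RNA. The authors deposited 1 log10 ratio per probe and array, where base 10 is a reading, judged from the size of the globin ratios (median of 55 probes -1.46, -1.65, -1.43 and -1.42 at 0, 2, 7 and 21 h, but -0.04 at 0.5 h, where the basis fails); its base, centring and direction, like the scanner and the normalization, are not stated by the labels or the table. Per the labels, cDNA was labelled by the indirect amino-allyl method with Cy3. Deposited medians were 0.04, 0.07, 0.05, 0.00 and 0.03 at 0, 0.5, 2, 7 and 21 h. Of 19828 probes 14759 had 1 symbol, 170 several and 4899 none; 14628 matched by Entrez identifier to RefSeq symbols (GRCm38.p6). Named probes with a value on all 5 arrays were averaged by gene and each array was centred on its gene median. The number of arrays limits the precision, and no test was run. Every member was named, pathway genes when past 2-fold or among the 2 highest or lowest of the list at a time, and the 3 genes nearest in course. Outside that rule Cd36, Colec12, Pglyrp1, Hsp90b1, Cnpy3, Lrrc59, Traf6, Irak1, Rela, Nfkbia, Col1a2 and the genes named for shapes and markers were chosen after their values were seen. Members and lists were chosen with earlier results of these data known. The joining, centring and size rule were tested on simulated arrays with planted differences and less noise than the probe spread here. That run cannot give the error of the size rule at the spread of these data. Alternatives were other centrings, scalings, probe joins, baselines, size rules and base 2; leaving out the 0.5 h array and the ranks of gaps were added after seeing the data. Software was pandas 2.3.3 and numpy 2.4.6 under Python 3.11.15, statsmodels 0.14.6 for lowess and matplotlib 3.10.9.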

Additional observations from a re-analysis of the deposited data

How the results depend on the processing

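Over the alternatives for which a difference from 0 h was computed, Ly86 at 21 h and Tlr2 at 2 and 21 h kept their sign, from 0.60 to 0.99, 0.23 to 0.37 and 0.23 to 0.39, and against the 0.5 h array they were at 0.82, 0.39 and 0.30. The count of members past the size rule was 1 at 2 h and 1 at 21 h. At 2 h it was 0 with the lowess fit subtracted, with arrays scaled to one median absolute deviation, after quantile normalization, with a 3-fold rule and on base 2, and 2 with a 1.5-fold rule. All genes higher and lower at 2 h were then 254 and 160 after the lowess fit and 317 and 201 after scaling. They were 330 and 265 after quantile normalization and 135 and 65 with a 3-fold rule. On base 2 they were 19 and 7, and with a 1.5-fold rule 830 and 735. At 21 h the member count was 2 after quantile normalization, against the 0.5 h array and with a 1.5-fold rule, and 0 on base 2. All genes higher and lower there were 624 and 649, 1016 and 1784, 1027 and 963, and 3 and 8. At 0.5 h the member count was 0, and 1 with the trend removed, where Tlr2 was at -0.33. There 888 of all genes were higher and 1059 lower. Members above 0 were 2 at 2 h and 1 at 7 h; with the probe of highest mean ratio they were 1 at 2 h, and with the running median removed 2 at 7 h. Of the 31 pathway genes 5, 4, 4 and 2 were past the rule at 0.5, 2, 7 and 21 h. At 21 h the count was 6 after quantile normalization, 5 after scaling, 4 with the running median removed or centred on all probes, 6 with the probe of highest mean ratio and 10 against 0.5 h. All genes higher and lower were 624 and 649 after quantile normalization and 574 and 565 after scaling. They were 371 and 267 with the running median removed and 412 and 362 centred on all probes. With the probe of highest mean ratio they were 513 and 554, and against 0.5 h 1016 and 1784. Against 0.5 h the pathway count was 8 at 2 h, where 823 of all genes were higher and 1695 lower. With the trend removed the pathway count was 2 at 7 h, where 169 of all genes were higher and 192 lower. With a 1.5-fold rule it was 9, 7 and 9 at 0.5, 2 and 21 h. All genes higher and lower were then 2312 and 1775, 830 and 735, and 1027 and 963. With a 3-fold rule the pathway count was 2, 2 and 0 at 2, 7 and 21 h, beside 135 and 65, 114 and 28, and 120 and 115 of all genes. On base 2 it was 2, 0, 1 and 0 at the 4 times, beside 384 and 50, 19 and 7, 12 and 5, and 3 and 8. Among values past the rule, signs turned for Ptpn6 (-0.47) and Nfkbie (-0.15) at 0.5 h with the trend removed, for Tmed7 (-0.14) at 0.5 h with the probe of highest mean ratio, and for Nfkbie against 0.5 h (-0.84 at 2 h and -0.28 at 7 h). Among smaller values, Ly86 at 7 h turned from -0.12 to 0.06 against 0.5 h, and Tlr2 at 0.5 h from -0.03 to 0.01 without centring and 0.08 with the running median removed; the turns of Marco are given above. The cause was not tested. Removal of the trend has no value for a ratio on a single array and was not run there. No paired analysis was possible because each group held 1 array. Signal over background is unknown without spot intensities.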

Other observations

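Tril, which encodes a leucine-rich repeat protein that helps TLR4 and TLR3 signal, was not a member and was noticed for its values. Its centred log ratios in order of time were -0.69, -1.05, -0.76, -0.78 and -0.09, over 2 probes, and it was the 14th gene by the gap between 21 h and the other arrays. It was below the embryo reference on all 5 arrays. One of its probes has number 855, near that of Ly86 (859), and the other has number 2555.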
